A study of Canis lupus familiaris with 24 samples.

Results

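The HOX genes are the homeobox transcription factor genes that sit in 4 clusters, A, B, C and D, and are numbered by paralogue group within each cluster. They were taken here as every row of the count table whose gene symbol consists of HOX, a cluster letter and a paralogue number, which gave 35 of 32704 rows. Cluster A had 11 of these rows, cluster B had 10, cluster C had 7 and cluster D had 7. HOXC8, HOXC9, HOXD9 and HOXD13 were not analysed here.

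The study measured messenger RNA by stranded sequencing in 24 libraries of Madin-Darby canine kidney (MDCK) cells, a dog kidney epithelial cell line used to follow the epithelial-to-mesenchymal transition (EMT). Its 2 sublines, MDCK-II and MDCK-NBL2, were collected without treatment on day 0 and day 4, and on day 4 with transforming growth factor beta (TGFb). A further pair of MDCK-NBL2 groups received TGFb to day 4 together with a control small interfering RNA (siCTR) or one against PRRX1 (siPRRX1), a homeobox transcription factor gene associated with EMT. Each of the 8 groups had 3 libraries. The submitters described the untreated groups as epithelial, TGFb-treated MDCK-II and the siPRRX1 group as partial EMT, and TGFb-treated MDCK-NBL2 with or without siCTR as full EMT. All libraries come from these sublines, so no spread between animals was measured.

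HOX proteins bind DNA together with cofactors that are homeobox proteins themselves and give cells along the body axis their positional identity. Low paralogue numbers are used towards the head and high numbers, the posterior genes, towards the tail, and the order of the genes on the chromosome follows the order of their use. Polycomb and trithorax complexes keep the clusters silent or active through cell divisions, and retinoic acid is a classical inducer of the low-numbered end. In the developing kidney, posterior HOX genes such as HOXA11 act in the mesenchyme, and HOXB7 is a familiar marker of the ureteric bud, from which the collecting ducts form.

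Libraries held 6134929 to 27567296 counts. The HOX rows together made up between 0.02002% and 0.03813% of a library's counts. Levels are given as CPM, counts scaled by TMM to a library of 1000000, and because CPM is not corrected for gene length it compares samples for 1 gene and never genes with each other. PRRX1 itself stood at 33.9, 7.34 and 3.88 CPM in the siCTR libraries and at 1.11, 0.339 and 0 CPM in the siPRRX1 libraries. Elsewhere it was at 37.2, 8.89 and 5.71 CPM in TGFb-treated and at 0 to 7.06 CPM in untreated MDCK-NBL2, at 3.79, 5.84 and 3.01 CPM in TGFb-treated MDCK-II and at 0.236 to 1.38 CPM in untreated MDCK-II. The summed level of 8 renal epithelial markers was 1090 to 2890 CPM in every library, with CDH16 at 0 in the 3 TGFb-treated MDCK-NBL2 groups. The 6 fibroblast markers summed to at most 0.335 CPM in MDCK-II and to 12.7 to 828 CPM in untreated MDCK-NBL2. In TGFb-treated MDCK-NBL2 they summed to 1570 to 5030 CPM, and PDGFRB was at 0 in every library. Most of that sum was COL1A1 and COL1A2, while COL3A1 reached at most 104 CPM, LUM 4.79 CPM and DCN 0.265 CPM. Leukocyte markers (4 genes) and endothelial markers (5 genes) summed to at most 4.75 and 9.59 CPM. MDCK-NBL2 untreated day 0 replicate 1 and untreated day 4 replicate 2 stood apart from their groups in earlier results of these data. Results are given without them where that matters. Untreated day 4 replicate 3 of this line weighed on the calls too. Without it, edgeR's quasi-likelihood test gave 41.7% of all tested genes an adjusted p under 0.05 between day 0 and day 4 there. With it, the share was 17.7%. For the untreated lines at day 4, the shares were 47% without it and 36.3% with it. In MDCK-II, untreated day 4 replicate 1 had the highest HOX share, 0.03813%, against 0.02582% and 0.02387% in replicates 2 and 3. In bulk RNA, fewer cells expressing a gene and less RNA per cell cannot be told apart.

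Presence was counted as at least 1 CPM in every library of a group, a mark that depends on gene length and so does not rank the clusters. All 11 HOXA genes reached it in each group, except HOXA11 in MDCK-II at day 0. In cluster B, 9 genes reached that level in all 3 MDCK-II groups and 5 to 7 in the MDCK-NBL2 groups. Cluster C contributed 2 to 4 genes and cluster D only 1 or 2, of which HOXD8 reached it in every group. In all, 20 to 25 of the 35 genes passed this mark per group.

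Some HOX genes had too few counts to be described further. HOXC11, HOXC12, HOXD1 and HOXD12 had no count in any library. In the TGFb-treated MDCK-NBL2 group, a count of 0 allows up to 0.149 CPM, taken as 3 counts over the group. HOXB1 had 3 counts in all, HOXD11 had 6, HOXC13 had 7 and HOXD10 had 93, and these 4 did not pass the filter on low counts. HOXD4 passed it with 177 counts, but its highest group mean was 0.967 CPM. The remaining comparisons therefore cover 27 tested genes, 11 of cluster A, 9 of B, 4 of C and 3 of D. For these, a gene was called when its Benjamini-Hochberg adjusted p from edgeR's quasi-likelihood test over all 12466 tested genes was under 0.05. All printed adjusted p-values come from that test, and fold changes are followed by their standard error (SE).

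**Figure D1:**
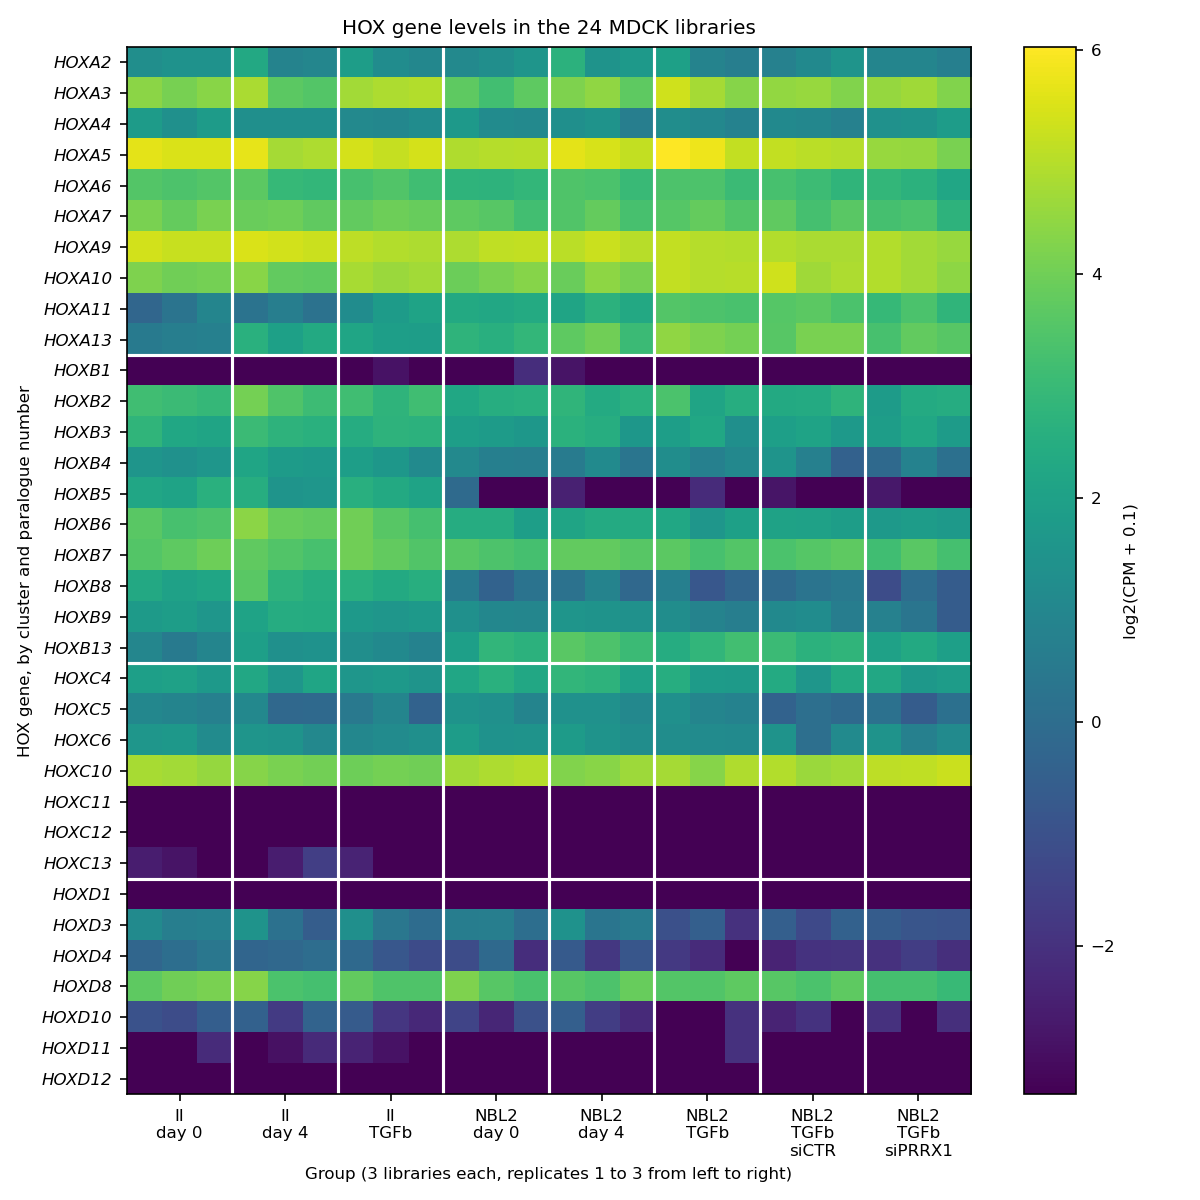
Level of 34 of the 35 HOX genes, as log2(CPM + 0.1) by colour, in the 24 libraries (columns, 3 per group) with clusters A to D separated by white lines; colours should be compared along a row and not between rows. The row of HOXB5 is bright in the 9 MDCK-II libraries and dark in 14 of the 15 MDCK-NBL2 libraries, while HOXA11 and HOXA13 are brighter in MDCK-NBL2.

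The first question was how the untreated lines differ. At day 0, HOXA11, HOXA13 and HOXB13 were higher in MDCK-NBL2 than in MDCK-II, and HOXA5, HOXA6, HOXA7, HOXB5, HOXB6 and HOXB8 were lower. These are 3 genes higher and 6 lower among the 27 tested HOX genes, while 28.5% of all tested genes were called, 14.8% higher and 13.8% lower. The median HOX difference was -0.33 on the log2 scale, against -0.04 over all tested genes. No gene of cluster C or D was called at day 0, nor were HOXA9 and HOXB9, at -0.24 ± 0.11 (log2, adjusted p = 0.12) and -0.64 ± 0.25 (log2, adjusted p = 0.062). With a replicate block in all 24 libraries, 12 HOX genes were called, beside 29.8% of all tested genes. It added HOXA3, HOXB3 and HOXB9 (adjusted p = 0.042, 0.031 and 0.047). With only the groups compared, 12 were called, beside 42.6% of the genes in that fit. HOXC4 was among them (adjusted p = 0.046), and HOXA7 was not.

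HOXA11, which patterns the forelimb and the kidney mesenchyme, measured 0.759, 1.1 and 1.8 CPM in MDCK-II at day 0 and 4.98, 4.76 and 5.11 CPM in MDCK-NBL2. The groups did not overlap, and the MDCK-NBL2 libraries lay close together. The difference was 2.08 ± 0.27 (log2, SE, adjusted p = 9.7e-06), a 4.23-fold higher level. HOXA13, the last gene of the cluster and a regulator of the digits, hindgut and urogenital tract, measured 1.31, 1.49 and 1.56 CPM in MDCK-II and 6.58, 5.92 and 7.27 CPM in MDCK-NBL2. All 3 MDCK-NBL2 libraries were well above the highest MDCK-II library, and the difference was 2.17 ± 0.25 (log2, adjusted p = 2.6e-06). HOXA10, the gene beside HOXA11 on the low-numbered side, measured 18.6, 15.8 and 16.8 CPM in MDCK-II against 15.1, 17.4 and 19.9 CPM in MDCK-NBL2. Its ranges overlapped and it was not called.

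HOXB13, the posterior end of cluster B and known for its role in the prostate, gave 1.86, 1.33 and 1.8 CPM in MDCK-II at day 0. In MDCK-NBL2 it gave 3.74, 7.07 and 6.33 CPM, again with no overlap. The lowest of these came from replicate 1, the library that stood apart. The difference was 1.80 ± 0.27 (log2, adjusted p = 3.9e-05).

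EVX1, a homeobox gene that is no HOX gene but lies next to HOXA13 at the posterior end of the cluster in the RefSeq annotation of another dog assembly, differed more than HOXA13 in the point estimate. It measured at most 0.36 CPM in each of the 9 MDCK-II libraries and 6.05 to 25 CPM in each of the 15 MDCK-NBL2 libraries. The ranges were far apart. At day 0 the counts were 15 in MDCK-II and 591 in MDCK-NBL2, and the fitted difference was 4.99 ± 0.46 (log2, adjusted p = 1.1e-07). SKAP2, which lies outside the other end of the cluster, was lower in MDCK-NBL2, by a log2 change of -0.52 ± 0.16 (adjusted p = 0.018). EVX1 and SKAP2 belong to a list of 17 genes around the clusters, 14 of them tested, in which 1 was higher and 3 were lower at day 0, a share of 28.6% near the 28.5% of all tested genes.

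HOXB5, a central gene known in the enteric nervous system, was the HOX gene with the largest fold between the lines. It measured 4.55, 4.24 and 6 CPM in MDCK-II at day 0 and 0.831, 0 and 0 CPM in MDCK-NBL2. The single MDCK-NBL2 library with a signal was replicate 1, which held all 12 counts and lay at 16.9% of the MDCK-II mean. The ratio of scaled counts was 20.1, with a 95% interval of 11.3 to 39.6 that covers counting error only. Without that library, MDCK-NBL2 had 0 counts against 224, which makes MDCK-II at least 58.3-fold higher with 3 counts over the group as the floor. The fitted change was -4.18 ± 0.74 (log2, adjusted p = 0.00023).

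Over all 15 MDCK-NBL2 libraries, HOXB5 was at 0 in 10. Outside day 0 replicate 1 no MDCK-NBL2 library held more than 2 counts. The 9 MDCK-II libraries ranged from 2.75 to 6 CPM in the same readout.

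HOXB6 and HOXB8, which lie on the far side of HOXB5 from HOXB4, were also lower. HOXB6, active in trunk mesoderm, measured 12.2, 9.89 and 10.6 CPM in MDCK-II at day 0 and 5.4, 5.39 and 3.63 CPM in MDCK-NBL2. Its difference was -1.15 ± 0.21 (log2, adjusted p = 0.00028). HOXB8, known from myeloid progenitors, measured 4.9, 3.97 and 4.44 CPM against 1.32, 0.661 and 1.08 CPM, a difference of -2.17 ± 0.39 (log2, adjusted p = 0.00025). Neither gene overlapped between the lines. HOXB7, which lies between them, measured 11.4, 12.8 and 15.3 CPM in MDCK-II and 12, 10.6 and 9.42 CPM in MDCK-NBL2, overlapped and was not called. In the RefSeq models HOXB3 overlaps HOXB4, HOXB5 and HOXB6, and HOXB8 overlaps HOXB9, so reads may have been divided uncertainly among these genes.

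The central HOXA genes showed smaller differences at day 0. HOXA5, known from lung development, had mean levels of 46.6 ± 2.99 CPM in MDCK-II and 31.4 ± 1.23 CPM in MDCK-NBL2 (SD, n = 3 each), with a log2 change of -0.57 ± 0.21 and an adjusted p of 0.046. HOXA6 and HOXA7 changed by -0.73 ± 0.21 (log2, adjusted p = 0.013) and by -0.50 ± 0.18 (log2, adjusted p = 0.043). These calls were weak: HOXA5 was lost in each fit without 1 of the 6 day 0 libraries, at adjusted p-values of 0.075 to 0.13. HOXA7 was lost without MDCK-II replicates 1 and 3 and without MDCK-NBL2 replicates 2 and 3, and HOXA6 without MDCK-NBL2 replicate 2 (adjusted p = 0.053). The models of HOXA3, HOXA5 and HOXA6 overlap in RefSeq as well.

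At day 4 without treatment, genes higher in MDCK-NBL2 included HOXA11, HOXA13, HOXB13 and HOXC5, and lower were HOXB2, HOXB4, HOXB5, HOXB6, HOXB8 and HOXB9. This makes 5 higher and 6 lower of 27, beside 36.3% of all tested genes called, 21.0% higher and 15.3% lower. HOXA5, HOXA6 and HOXA7, lower at day 0, were not called here, and HOXA5 averaged 43.3 CPM in MDCK-NBL2 against 35.7 CPM in MDCK-II. The HOX median was 0.07 on the log2 scale, against 0.02 over all tested genes, and the median over the 9 tested HOXB genes was -0.99.

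HOXA11 measured 1.08, 1.49 and 1.04 CPM in MDCK-II at day 4 and 4.34, 6.35 and 4.93 CPM in MDCK-NBL2, a difference of 2.07 ± 0.27 (log2, adjusted p = 5.4e-06). HOXA13 measured 5.97, 3.84 and 4.96 CPM against 13.1, 16 and 8.26 CPM, a difference of 1.37 ± 0.22 (log2, adjusted p = 8e-05). HOXB13 measured 3.81, 2.51 and 2.65 CPM against 12.3, 10.6 and 8.26 CPM, a difference of 1.81 ± 0.25 (log2, adjusted p = 1.5e-05). For each of these genes every MDCK-NBL2 library exceeded every MDCK-II library.

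HOXB5 measured 5.54, 2.75 and 2.88 CPM in MDCK-II and 0.0812, 0 and 0 CPM in MDCK-NBL2 at day 4. That is 185 counts against 2, a 106-fold ratio (95% interval for counting error 28.9 to 881). HOXB6 measured 20.9, 14.2 and 13.5 CPM against 4.3, 5.21 and 5.16 CPM, a difference of -1.73 ± 0.21 (log2, adjusted p = 2.3e-06). Both genes were separated between the lines in every library. HOXB8 measured 12.4, 6.42 and 5.54 CPM against 1.06, 1.7 and 0.803 CPM, a difference of -2.71 ± 0.37 (log2, adjusted p = 1e-05). HOXB4, known from blood stem cells, measured 4.39, 3.37 and 3.23 CPM against 1.38, 2.14 and 1.15 CPM, a difference of -1.19 ± 0.35 (log2, adjusted p = 0.011). MDCK-II replicate 1 was the highest library of its group for all 4 of these HOXB genes.

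HOXB2 and HOXB9, on either side of this stretch, were lower by smaller amounts, with log2 changes of -0.99 ± 0.27 (adjusted p = 0.0071) and -0.89 ± 0.24 (adjusted p = 0.0065). HOXB2 was not called without MDCK-II replicate 1 (adjusted p = 0.052). HOXC5 measured 1.94, 0.794 and 0.808 CPM in MDCK-II and 2.52, 2.55 and 1.95 CPM in MDCK-NBL2, with the nearest libraries almost touching, and differed by 1.01 ± 0.35 (log2, adjusted p = 0.03). HOXC5 lost its call in each fit without MDCK-II replicate 2 or 3 or MDCK-NBL2 replicate 1 or 2, at adjusted p-values of 0.062 to 0.17. When the fit held only these 6 libraries, 6 HOX genes were called instead of 11. The share of all tested genes called went from 36.3% to 10.4%. HOXB2, HOXB4, HOXB9 and HOXC5 were among the HOX genes that dropped out.

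**Figure D2:**
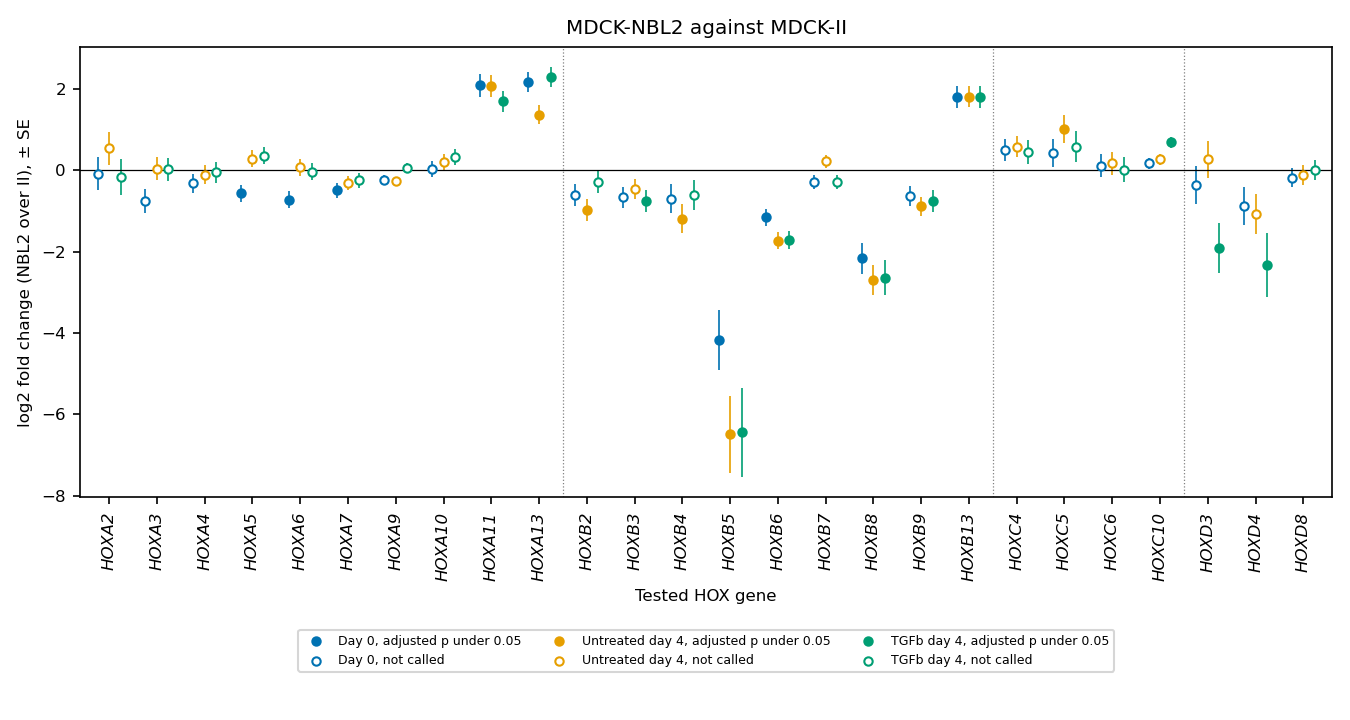
Log2 fold change of MDCK-NBL2 over MDCK-II for 26 of the 27 tested HOX genes (points, with SE bars) at day 0, untreated day 4 and TGFb day 4; filled points were called at an adjusted p under 0.05. HOXA11, HOXA13 and HOXB13 are filled above 0 and HOXB5, HOXB6 and HOXB8 filled below 0 in all 3 comparisons.

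The TGFb-treated lines gave 5 higher and 7 lower HOX genes of 27, where 45.9% of all tested genes were called, 23.7% higher and 22.3% lower. HOXA11, HOXA13, HOXB13 and HOXC10 were among those higher in MDCK-NBL2. HOXB3, HOXB5, HOXB6, HOXB8, HOXB9, HOXD3 and HOXD4 were lower. HOXA11, HOXA13 and HOXB13 were thus higher, and HOXB5, HOXB6 and HOXB8 lower, in all 3 comparisons of the lines. Being called in all 3 in 1 direction applied to 9.75% of all tested genes for higher and 6.82% for lower. The sign of the change at day 0 and at day 4 was the same for 21 of 27 HOX genes and for 77.4% of all tested genes.

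Under TGFb, HOXA11 measured 2.26, 3.39 and 4.24 CPM in MDCK-II and 11.3, 10.6 and 9.92 CPM in MDCK-NBL2, a difference of 1.69 ± 0.25 (log2, adjusted p = 2.8e-05). HOXA13 measured 4.42, 3.72 and 3.57 CPM against 22.2, 18.6 and 16.5 CPM, a difference of 2.29 ± 0.24 (log2, adjusted p = 3.3e-07). HOXB13 measured 2.35, 2.04 and 1.67 CPM against 5.37, 6.94 and 9.01 CPM, a difference of 1.81 ± 0.27 (log2, adjusted p = 3e-05). These 3 genes remained separated between the lines under treatment.

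HOXB5 had 240 counts in TGFb-treated MDCK-II (5.87, 5 and 4.24 CPM) and 1 count in TGFb-treated MDCK-NBL2 (0, 0.122 and 0 CPM), a 102-fold ratio (95% interval for counting error 18.1 to 4030). HOXB6 measured 15.7, 11.9 and 9.59 CPM against 4.6, 2.92 and 3.91 CPM, a difference of -1.72 ± 0.23 (log2, adjusted p = 6.8e-06). HOXB8 measured 5.87, 5.04 and 5.69 CPM against 1.53, 0.487 and 0.751 CPM, a difference of -2.65 ± 0.43 (log2, adjusted p = 7.2e-05). Treatment did not bring the lines together for any of these. HOXB3 and HOXB9 differed by -0.77 ± 0.27 (log2, adjusted p = 0.027) and -0.76 ± 0.27 (log2, adjusted p = 0.028). HOXB3 was not called without MDCK-II replicate 2 or 3 or MDCK-NBL2 replicate 1 or 3 (adjusted p = 0.059 to 0.14), nor HOXB9 without MDCK-II replicate 1 or 3 or MDCK-NBL2 replicate 2 or 3 (0.055 to 0.11). HOXC10, a posterior gene of the hindlimb region, was higher in MDCK-NBL2 by 0.68 ± 0.15 (log2, adjusted p = 0.001), at 25.8 ± 5.13 against 16 ± 0.824 CPM (SD, n = 3 each).

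The low-numbered HOXD genes were lower in TGFb-treated MDCK-NBL2, at low counts. HOXD3 measured 2.44, 1.2 and 0.892 CPM in MDCK-II and 0.383, 0.609 and 0.15 CPM in MDCK-NBL2, a difference of -1.91 ± 0.62 (log2, adjusted p = 0.016). HOXD4 had 25 counts against 2, a 5.29-fold ratio (95% interval for counting error 1.32 to 46.1), and libraries of 0.812, 0.474 and 0.335 CPM against 0.192, 0.122 and 0 CPM. Its fitted change was -2.33 ± 0.79 (log2, adjusted p = 0.021). The call for HOXD3 was lost without MDCK-II replicate 1 (adjusted p = 0.077) or MDCK-NBL2 replicate 3 (adjusted p = 0.078). HOXD4 was lost without MDCK-NBL2 replicate 2 or 3 (adjusted p = 0.055 and 0.091), and DESeq2's Wald test gave it an adjusted p of 0.077. HOXD4 did not pass the filter on low counts, and so had no test, without MDCK-II replicate 1 or 2, without either library that stood apart, and with only the groups compared, with or without a replicate block. HOXD3 likewise had no test with only the groups compared.

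**Figure D3:**
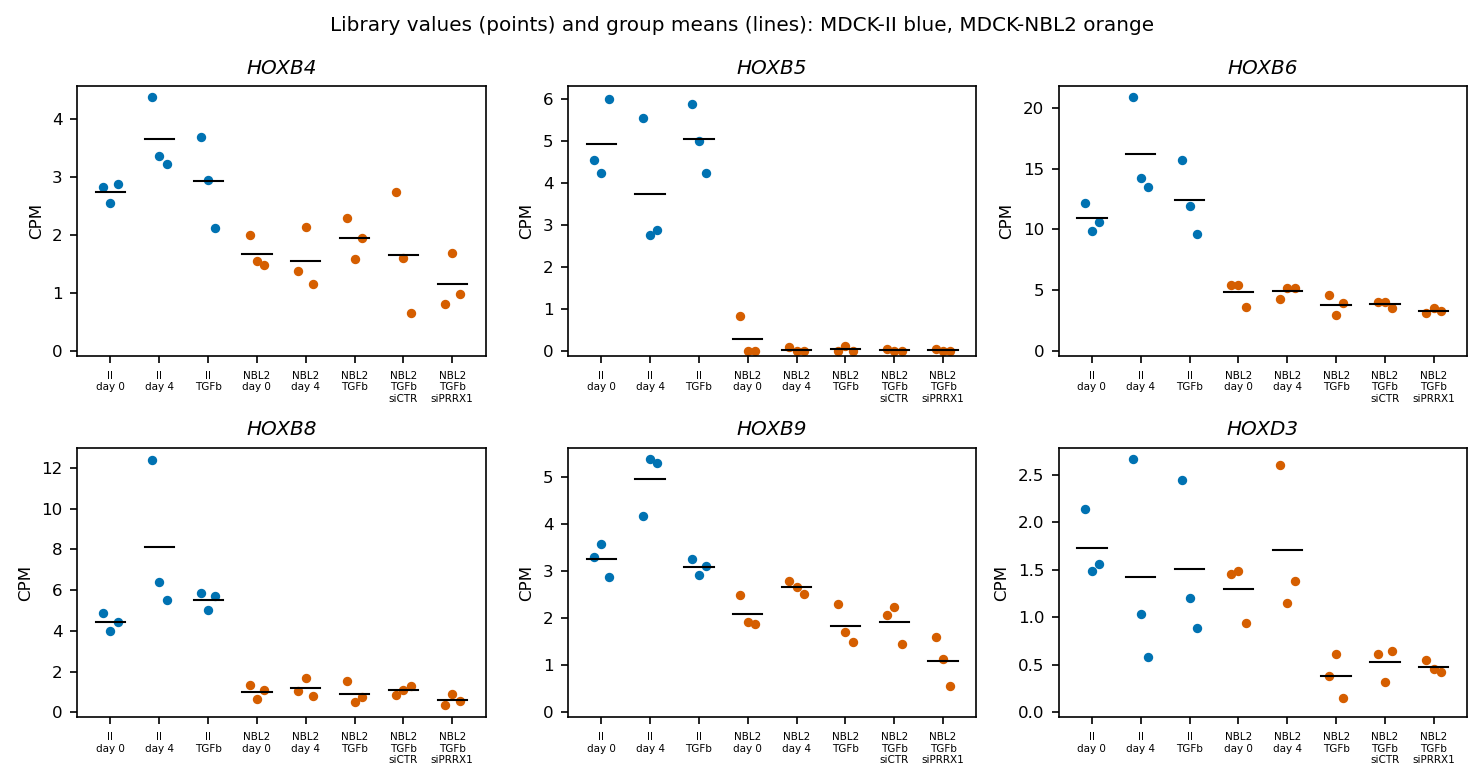
CPM of HOXB4, HOXB5, HOXB6, HOXB8, HOXB9 and HOXD3 in each library (points; MDCK-II blue, MDCK-NBL2 orange) with group means (lines), on linear axes from 0. HOXB5 lies between 2.75 and 6 CPM in MDCK-II and near 0 in MDCK-NBL2, and HOXD3 drops below 1 CPM in the 3 TGFb-treated MDCK-NBL2 groups.

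The untreated groups were also compared over time. Between day 0 and day 4 in MDCK-II, HOXA13 rose and HOXC10 fell, 2 of 27 genes beside 9.81% of all tested genes called, 5.76% higher and 4.05% lower. HOXA13 went from 1.31, 1.49 and 1.56 CPM to 5.97, 3.84 and 4.96 CPM, a change of 1.75 ± 0.26 (log2, adjusted p = 0.00042). HOXC10 went from 25.7 ± 2.25 to 17.9 ± 2.01 CPM (SD, n = 3 each), a change of -0.52 ± 0.14 (log2, adjusted p = 0.027). HOXC10 was lost without MDCK-II day 0 replicate 1 or 2 or day 4 replicate 2 or 3 (adjusted p = 0.059 to 0.11).

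In MDCK-NBL2, HOXA13 and HOXB13 rose and HOXC10 fell between day 0 and day 4. In all, 4 of 27 genes were called, 3 higher and 1 lower, beside 17.7% of all tested genes called, 12.4% higher and 5.26% lower. The changes were 0.94 ± 0.22 for HOXA13 (log2, adjusted p = 0.01), 0.87 ± 0.24 for HOXB13 (log2, adjusted p = 0.022) and -0.43 ± 0.14 for HOXC10 (log2, adjusted p = 0.045). None of these 3 genes overlapped between the days. These calls rest on the spread of all 24 libraries. A fit on the 6 libraries alone called none of the 4 and no gene in the table. Without day 0 replicate 1 or without day 4 replicate 2, the libraries that stood apart, 2 HOX genes were called. Those fits called 10.1% and 14.6% of all tested genes. Without day 4 replicate 3 there were 8 HOX genes, beside 41.7% of all tested genes. Without day 4 replicate 1 HOXA13 was the only HOX gene called, beside 8.15% of all tested genes. HOXA13 was lost without day 0 replicate 2 (adjusted p = 0.053). HOXC10 was lost in 9 of 13 alternative fits and HOXB13 in 4 of 13. Among those for HOXC10 were the fit without a filter on low counts (adjusted p = 0.084) and each fit that left out 1 library other than day 4 replicate 3.

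The second question was how each line responds to TGFb at day 4. HOXA10 and HOXA11 rose in both, HOXA13 rose in MDCK-NBL2, HOXA9 fell in MDCK-II and HOXD3 fell in MDCK-NBL2. No HOXB or HOXC gene was called in either line. HOXA3, at the low-numbered end, was not called. It averaged 17.5 CPM untreated and 28.7 CPM treated in MDCK-II (log2 0.71 ± 0.29, adjusted p = 0.083). In MDCK-NBL2 it averaged 17.8 and 29.1 CPM (log2 0.69 ± 0.29, adjusted p = 0.06). Treated and untreated libraries overlapped for HOXA3 in both lines. With a replicate block in all 24 libraries HOXA3 was called in both (adjusted p = 0.041 and 0.047). In MDCK-NBL2, though, not all same-numbered libraries deviated together (lowest correlation 0.059). In MDCK-II, 3 of 27 HOX genes were called, beside 21.1% of all tested genes, 11.8% higher and 9.27% lower. In MDCK-NBL2, 4 of 27 were called, beside 44.3%, 21.0% higher and 23.4% lower. The HOX median changes were -0.18 and -0.10 on the log2 scale, against -0.03 and -0.04 over all tested genes.

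HOXA10, a posterior gene of the uterus, limb and kidney stroma, went from 20.4, 13.5 and 12.8 CPM to 28.1, 24.4 and 26.3 CPM in MDCK-II. In MDCK-NBL2 it went from 14.6, 21.8 and 17 CPM to 35.5, 31.5 and 32 CPM. The treated libraries were above all untreated ones in both lines. The changes were 0.75 ± 0.20 in MDCK-II (log2, adjusted p = 0.013) and 0.89 ± 0.20 in MDCK-NBL2 (log2, adjusted p = 0.0016). In MDCK-II the call was lost without untreated replicate 2 or 3, at an adjusted p of 0.06 each.

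HOXA11 went from 1.08, 1.49 and 1.04 CPM to 2.26, 3.39 and 4.24 CPM in MDCK-II, a change of 1.40 ± 0.27 (log2, adjusted p = 0.0018). In MDCK-NBL2 it went from 4.34, 6.35 and 4.93 CPM to 11.3, 10.6 and 9.92 CPM, a change of 1.02 ± 0.24 (log2, adjusted p = 0.0024). Treated MDCK-II stayed below untreated MDCK-NBL2 for this gene. The call in MDCK-II was kept in all 15 alternative fits, with changes from 1.21 to 1.62 on the log2 scale.

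In MDCK-NBL2, HOXA13 measured 13.1, 16 and 8.26 CPM without TGFb and 22.2, 18.6 and 16.5 CPM with it. The groups came close without overlapping, and the change was 0.60 ± 0.22 (log2, adjusted p = 0.03). It was lost in 8 of 14 alternative fits, among them those without untreated replicate 1 (adjusted p = 0.057) or 3 (0.14) and those without treated replicate 1 (0.12) or 2 (0.058). Treated replicate 1, the highest, has a library number that starts with 58, and the others start with 26. With a term for these digits the call was lost (adjusted p = 0.072). In MDCK-II HOXA13 measured 5.97, 3.84 and 4.96 CPM untreated and 4.42, 3.72 and 3.57 CPM treated, and was not called.

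HOXA9, a posterior gene known from leukaemia, measured 45.3, 42 and 38.6 CPM in MDCK-II without TGFb and 33.8, 30.8 and 29.4 CPM with it, a change of -0.42 ± 0.11 (log2, adjusted p = 0.012). It was not called without treated replicate 2 (adjusted p = 0.052) or 3 (0.055). In MDCK-NBL2, HOXD3 measured 2.6, 1.15 and 1.38 CPM without TGFb and 0.383, 0.609 and 0.15 CPM with it, 107 counts against 8. The change was -2.11 ± 0.60 (log2, adjusted p = 0.0083), and it was not called without untreated replicate 1 (adjusted p = 0.054).

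EVX1 moved opposite to its neighbour HOXA13 under TGFb in MDCK-NBL2. It went from 25, 11.5 and 15.3 CPM to 7.29, 6.21 and 6.76 CPM, a change of -1.36 ± 0.34 (log2, adjusted p = 0.0037). The highest untreated value was replicate 1. With only these 6 libraries in the fit EVX1 was not called (adjusted p = 0.055). In MDCK-II it stayed at or under 0.288 CPM in both groups.

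Fitting MDCK-NBL2 untreated and TGFb-treated libraries alone called no HOX gene, with adjusted p-values of 0.053 for HOXA10, 0.055 for HOXA11 and 0.17 for HOXA13, and called 4.48% of the genes in that fit, in which HOXD3 was not tested. Untreated replicate 2 of this line stood apart, with a fibroblast marker sum of 828 CPM. That sum came from COL1A1 at 596 CPM and COL1A2 at 232 CPM, with COL3A1, PDGFRB, DCN and LUM at 0. The group's lowest sum was 15.1 CPM, and the treated libraries had 2100 to 5030 CPM. The part of these markers in the HOX differences was not tested. Without untreated replicate 2, 6 HOX genes were called, the 4 above with HOXA2 and HOXA3, beside 54.8% of all tested genes. In MDCK-II same-numbered libraries deviated together, though no label states a pairing. With the replicate number as a block in all 24 libraries, 5 HOX genes were called instead of 3, adding HOXA3 and HOXB9. That fit called 22.6% of all tested genes. Without MDCK-II untreated replicate 1 there were 6 HOX genes, adding HOXA3, HOXA5 and HOXB9, beside 21.4% of all tested genes. In this line fibroblast markers summed to at most 0.335 CPM, and COL1A2, COL3A1, DCN and LUM were at 0 in every treated library.

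**Figure D4:**
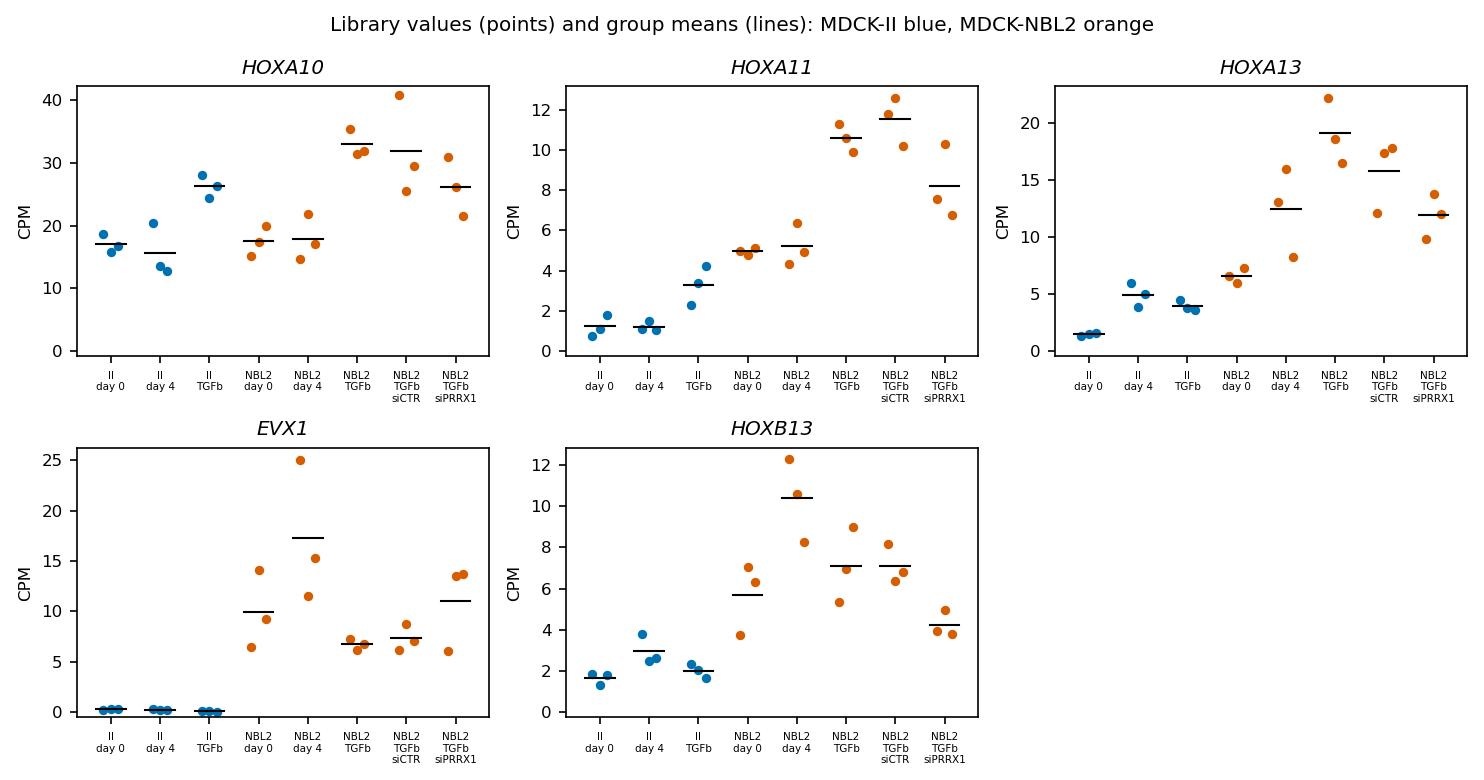
CPM of HOXA10, HOXA11, HOXA13, EVX1 and HOXB13 in each library (points; MDCK-II blue, MDCK-NBL2 orange) with group means (lines), on linear axes from 0. HOXA10 is at 12.8 to 20.4 CPM in all untreated day 4 MDCK-II libraries and above 24 CPM after TGFb, while EVX1 is near 0 in every MDCK-II library.

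Whether the response to TGFb differed between the lines was tested as an interaction. No HOX gene was called, where 5.70% of all tested genes were, 2.52% higher and 3.18% lower. In the same test 2 of 27 HOX genes had an unadjusted p under 0.05, beside 22.5% of all tested genes. DESeq2's Wald test also called 0 HOX genes, beside 9.53% of all tested genes. The difference in response was 0.14 ± 0.28 for HOXA10 and -0.38 ± 0.36 for HOXA11 (log2, MDCK-NBL2 minus MDCK-II). The 2 genes with a low unadjusted p were HOXA13, at 0.92 ± 0.32 (log2, adjusted p = 0.09), and HOXD3, at -2.18 ± 0.77 (log2, adjusted p = 0.097). Without MDCK-NBL2 untreated day 4 replicate 2, both were called, with adjusted p-values of 0.016 and 0.034. That fit called 21.1% of all tested genes, against 5.70% with all libraries. HOXD3 was also called without MDCK-II untreated day 4 replicate 1 (adjusted p = 0.019) and with a replicate block in all 24 libraries (adjusted p = 0.043). Those fits called 6.91% and 5.84% of all tested genes.

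The third question was whether lowering PRRX1 in TGFb-treated MDCK-NBL2 cells changes HOX levels. PRRX1 was lower with siPRRX1 by a log2 change of -4.64 ± 1.17 (adjusted p = 0.043), although the siCTR libraries themselves ranged from 3.88 to 33.9 CPM. No HOX gene was called, beside 2.00% of all tested genes, 0.810% higher and 1.19% lower. DESeq2's Wald test called 0 HOX genes as well, beside 3.79% of all tested genes. At an unadjusted p under 0.05 there were 7 of 27, HOXA4, HOXA5, HOXA6, HOXA7, HOXB9, HOXB13 and HOXC10, beside 14.9% of all tested genes. The HOX median was -0.25 on the log2 scale, against 0 over all tested genes, with 20 of 27 genes below 0.

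HOXA5 measured 35.4, 33.2 and 31.7 CPM with siCTR and 23.6, 23.4 and 17.7 CPM with siPRRX1, a change of -0.63 ± 0.21 (log2, adjusted p = 0.14). HOXB13 measured 8.17, 6.39 and 6.79 CPM against 3.93, 4.97 and 3.81 CPM, a change of -0.76 ± 0.26 (log2, adjusted p = 0.14). HOXC10 measured 31.1, 24.6 and 26.2 CPM against 34.4, 34.6 and 39.1 CPM, a change of 0.39 ± 0.14 (log2, adjusted p = 0.19). For these 3 genes the siRNA groups did not overlap, and the test over all genes missed its threshold. HOXA4, at 0.61 ± 0.25 (log2, adjusted p = 0.24), did not overlap either, nor did HOXB6 and HOXD8, both lower with siPRRX1, while HOXA6, HOXA7 and HOXB9 overlapped. In all, 6 of 27 HOX genes (22.2%) had groups without overlap, beside 31.6% of all tested genes.

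Same-numbered libraries deviated together in this comparison, with correlations of 0.207 to 0.401, though no label states a pairing. Replicate 1 of the siCTR and siPRRX1 groups had 26655390 and 22172939 counts, and replicates 2 and 3 had 7202327 to 9144704. The library numbers in the titles start with 26 for replicate 1 and with 58 for replicates 2 and 3. Pairing cannot be told apart from these differences. The count of HOX calls depended on how the spread was estimated. With the 6 siRNA libraries alone, HOXA5 and HOXB13 were called, with adjusted p-values of 0.019 and 0.039. They were 2 HOX genes beside 10.3% of all genes tested in that fit, against 2.00% in the fit of all libraries. With the replicate number as a block in those 6 libraries, 4 were called: HOXA5 at -0.63 (log2, adjusted p = 0.0029), HOXB13 at -0.79 (0.026), HOXA11 at -0.52 (0.035) and HOXC10 at 0.38 (0.035). That fit called 22.2% of all genes it tested. A block in all 24 libraries left the HOX count at 0, beside 2.11% of all tested genes. The genes that rose with TGFb in MDCK-NBL2 were not called in the fit of all libraries. HOXA11 measured 11.8, 12.6 and 10.2 CPM with siCTR and 7.57, 10.3 and 6.78 CPM with siPRRX1, lower in all 3 same-numbered pairs. HOXA13 measured 12.1, 17.4 and 17.8 CPM against 9.84, 13.8 and 12 CPM, also lower in all 3 pairs. HOXA10 measured 40.9, 25.5 and 29.6 CPM against 30.9, 26.2 and 21.5 CPM, lower in 2 of 3 pairs.

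**Figure D5:**
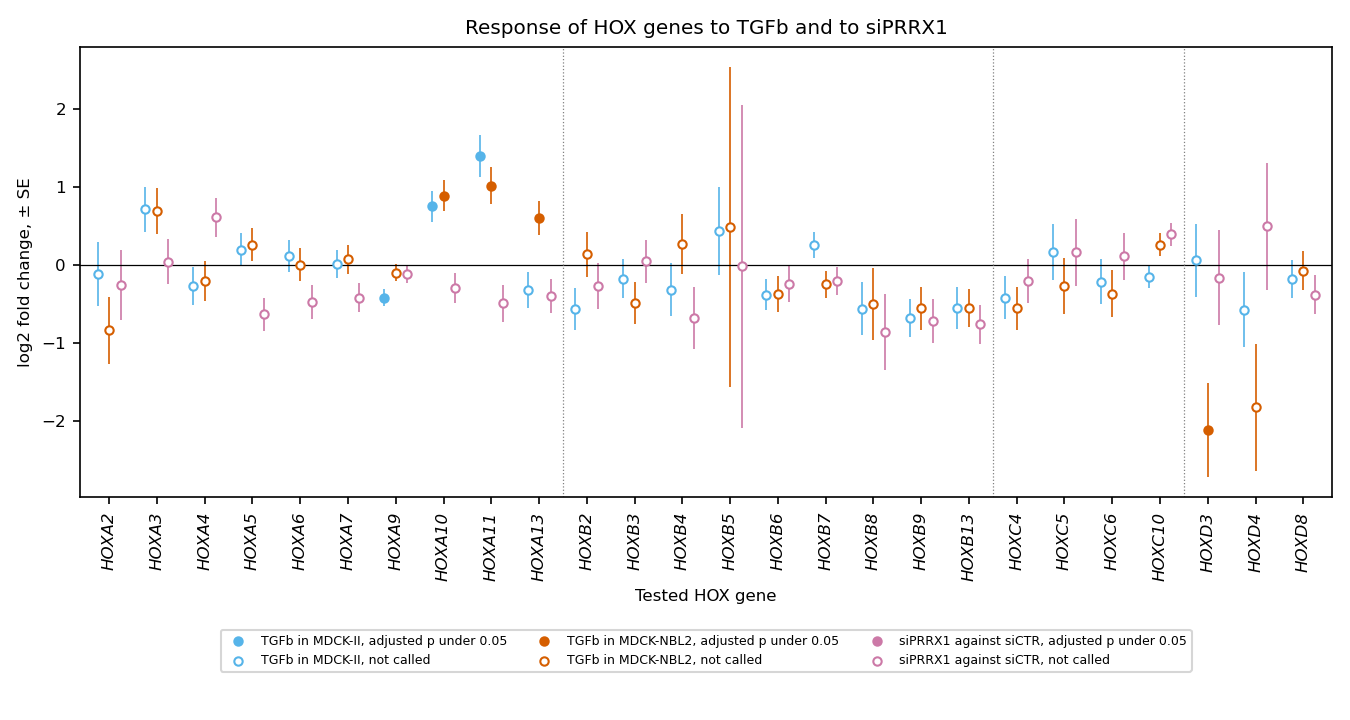
Log2 fold change of 26 of the 27 tested HOX genes (points, with SE bars) for TGFb in MDCK-II, TGFb in MDCK-NBL2 and siPRRX1 against siCTR in TGFb-treated MDCK-NBL2; filled points were called at an adjusted p under 0.05. The filled points are HOXA9, HOXA10 and HOXA11 in MDCK-II and HOXA10, HOXA11, HOXA13 and HOXD3 in MDCK-NBL2, and no siPRRX1 point is filled.

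The genes that work with or on the clusters were taken from 2 lists. The list of HOX cofactors and retinoic acid genes had 20 tested members, of which 8 were higher and 4 lower in MDCK-NBL2 at day 0 (60.0% called, beside 28.5% of all tested genes), with a median of 0.50 on the log2 scale against -0.04 over all tested genes. TGIF2, a homeobox repressor, was higher at day 0 by 1.23 ± 0.17 (log2, adjusted p = 2e-05) and the retinoid receptor gene RXRA by 0.95 ± 0.16 (log2, adjusted p = 0.00013). STRA6, the cellular retinol importer, was lower by a log2 change of -3.79 ± 0.57 (adjusted p = 4.5e-05).

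Under TGFb, 3 genes of the cofactor and retinoic acid list rose and 1 fell in MDCK-II (20.0% called, beside 21.1% of all tested genes), and 4 rose and 7 fell in MDCK-NBL2 (11 of 20, beside 44.3%). The list's medians were 0.11 and 0.05 on the log2 scale, against -0.03 and -0.04 over all tested genes. GDF11, a TGFb family ligand that acts on axial patterning, rose in both, by 1.56 ± 0.24 in MDCK-II (log2, adjusted p = 0.00034) and 1.61 ± 0.24 in MDCK-NBL2 (log2, adjusted p = 7.7e-05). In MDCK-II, the retinoic acid degrading enzyme gene CYP26B1 rose by 3.08 ± 0.80 (log2, adjusted p = 0.012) and STRA6 by 1.46 ± 0.47 (log2, adjusted p = 0.033), and the receptor gene RARG fell, with a change of -1.11 ± 0.36 (log2, adjusted p = 0.036). The same list in MDCK-NBL2 was led by RXRA, which fell with a change of -1.09 ± 0.16 (log2, adjusted p = 6.5e-05). RDH10, an enzyme of retinoic acid synthesis, rose by 0.94 ± 0.14 (log2, adjusted p = 7.1e-05), and CRABP2, a retinoic acid carrier, by 2.28 ± 0.39 (log2, adjusted p = 0.00021).

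The Polycomb and trithorax list had 38 tested members. At day 0, 3 were higher and 8 lower in MDCK-NBL2, a share of 28.9% that lay near the 28.5% of all tested genes. BMI1, a subunit of Polycomb repressive complex 1, changed by -1.17 ± 0.18 (log2, adjusted p = 4.2e-05) and CBX6, a reader subunit of the same complex, by -1.26 ± 0.25 (log2, adjusted p = 0.00077). EED, a core subunit of Polycomb repressive complex 2, changed by -0.62 ± 0.16 (log2, adjusted p = 0.0051), and EZH1, a catalytic subunit, was higher by 0.84 ± 0.21 (log2, adjusted p = 0.0046).

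With TGFb, 4 members of that list rose and 4 fell in MDCK-II, a share of 21.1% beside the same 21.1% of all tested genes. EED rose by 1.08 ± 0.16 (log2, adjusted p = 0.00021), from 43.6 ± 2.77 to 92.2 ± 8.21 CPM (SD, n = 3 each). The Polycomb-associated genes PHF1 and PHF19 fell, with changes of -0.53 ± 0.15 (log2, adjusted p = 0.019) and -1.22 ± 0.36 (log2, adjusted p = 0.022), as did WDR5, a trithorax complex subunit, at -0.43 ± 0.13 (log2, adjusted p = 0.022). In MDCK-NBL2, 4 members rose and 17 fell, a share of 55.3% beside 44.3% of all tested genes (21.0% higher and 23.4% lower), with a median of -0.27 on the log2 scale against -0.04. EED rose there too, by 1.40 ± 0.16 (log2, adjusted p = 1e-05), from 39.9 ± 12.3 to 105 ± 11.2 CPM. PHF19 fell, with a change of -2.90 ± 0.41 (log2, adjusted p = 5.4e-05), as did the histone methyltransferase gene DOT1L, at -1.39 ± 0.23 (log2, adjusted p = 0.00014), and CBX7, at -1.80 ± 0.32 (log2, adjusted p = 0.00027). With siPRRX1, edgeR's quasi-likelihood test called no member of either list.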

How the data were processed

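The authors deposited a table of whole-number read counts per gene for the 24 libraries, without normalization. Per the submitters' processing notes, STAR 2.5.3a, RSEM 1.3.0 and FastQC were used with the dog build CanFam3.1; the sources used here do not give their order, any rounding, the annotation or the strand setting. Gene names came from that table. RefSeq gene models of another assembly gave the neighbours and overlaps only.

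Counts were fitted with edgeR 4.0.16 in R 4.3.3 (filterByExpr, TMM, glmQLFit and glmQLFTest) as 8 group means over all 24 libraries, with 16 residual degrees of freedom and a common biological coefficient of variation of 21.9%. The SE is the fold change divided by the square root of F. The script was tested on simulated data. Nothing in the labels says that replicates were separate cultures, so p-values measure the spread between libraries. Same-numbered libraries deviated together (every correlation over 0.1) for the lines at day 0, TGFb in MDCK-II and siPRRX1, and not in the other comparisons.

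Called HOX genes are named, and those changed at least 2-fold are given by library; from each of the 2 lists, up to 4 genes with the smallest adjusted p are named per comparison. Members and lists were chosen with earlier results of these data known. Alternatives were DESeq2 1.42.0, its size factors, no filter, a replicate block, the groups compared alone, a term for the leading digits of the library numbers in the sample titles, and leaving out each library of a comparison; the 2 libraries that stood apart, known from earlier results, were also left out of every comparison. Library numbers start with 58 for TGFb-treated MDCK-NBL2 replicate 1 and for siCTR and siPRRX1 replicates 2 and 3. All others start with 26. Protein sequences, planned for 1 gene per cluster and direction, were not used here. The results of 2 genes are not reported here; counts and medians over genes include them.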

Additional observations from a re-analysis of the deposited data

How the results depend on the processing

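No HOX call changed its direction in any alternative, and 21 of the 45 calls were kept in all of them. HOXA11, HOXB5, HOXB6, HOXB8 and HOXB13 kept their line difference in every alternative at day 0, at day 4 and under TGFb, and so did HOXA13 except at day 4 with a replicate block in only the groups compared (adjusted p = 0.082). Fitting only the groups compared changed the number of HOX genes called for the lines, and with it the share of all tested genes called. The HOX count went from 9 to 12 at day 0, from 11 to 6 at day 4 and from 12 to 11 under TGFb. The shares went from 28.5% to 42.6%, from 36.3% to 10.4% and from 45.9% to 55%. The HOX count went from 4 to 0 for TGFb in MDCK-NBL2 and from 0 to 2 for siPRRX1. Shares there went from 44.3% to 4.48% and from 2.00% to 10.3%. For time the HOX count went from 2 to 1 in MDCK-II and from 4 to 0 in MDCK-NBL2. Shares there went from 9.81% to 10.1% and from 17.7% to 0%. With a replicate block added to that fit, the HOX counts were 13, 5, 12, 0, 4, 1 and 0 in the same order. The shares were 44.6%, 8.78%, 56.6%, 0.376%, 22.2%, 4.24% and 0%. A replicate block in all 24 libraries gave 5 HOX genes instead of 3 for TGFb in MDCK-II, beside 22.6% of all tested genes. It gave 1 instead of 0 for the difference in response, beside 5.84%. It moved no other HOX count by over 1.5 times. Without a filter on low counts, time in MDCK-NBL2 gave 2 HOX genes, beside 8.88% of the genes in that fit. The causes of these differences were not tested.

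Leaving out 1 library at a time, the number of HOX genes called ranged from 6 to 10 for the lines at day 0, from 9 to 12 at day 4 and from 9 to 11 under TGFb. The share of all tested genes called ranged from 21.4% to 34%, from 29.4% to 47% and from 37.2% to 50.8%. The HOX count ranged from 2 to 6 for TGFb in MDCK-II, from 2 to 6 in MDCK-NBL2 (2 without untreated day 4 replicate 1) and from 0 to 2 for the difference in response. Shares there were 9.99% to 30.7%, 35.3% to 54.8% and 2.44% to 21.1%. For siPRRX1 the HOX count was 0 throughout, beside 0.424% to 5.21% of all tested genes. It ranged from 1 to 3 for time in MDCK-II (1 without day 0 replicate 1 or 2 or day 4 replicate 3) and from 1 to 8 for time in MDCK-NBL2 (1 without day 4 replicate 1). Shares for time were 4.05% to 16.5% and 5.8% to 41.7%. Depth limits HOXB5, HOXD3 and HOXD4, which had 1, 8 and 2 counts in TGFb-treated MDCK-NBL2, and HOXD3 and HOXD4 were not tested in some alternatives.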

Other observations

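The 4 HOX genes that were not tested held few counts. HOXC13 had its 7 counts in 5 libraries, all of MDCK-II, at no more than 0.231 CPM. HOXD11 had 6 counts in 6 libraries and HOXB1 had 3 counts in 3 libraries. HOXD10 had at least 1 count in 20 of the 24 libraries and reached 0.692 CPM at most, in MDCK-II untreated day 4 replicate 3.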
